A study of Mus musculus with 6 samples.

Results

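The mRNAs of the serpin protease inhibitors were compared between Ythdf2-KO and WT B16-OVA melanoma cells. The members were the gene symbols made of Serpin, a clade letter from a to i, a number and, for some, further letters, which left out symbols of pseudogenes that carry a suffix. This gave 64 of the 56734 symbols counted. Of the 64, 24 had a mean of 5 or more counts over the 6 libraries and are called expressed here, and 17 had enough counts to be tested. The other 40 lay under that mean, 15 of them without a count in any library, and none of the 40 exceeded 8 counts in a library. Serpind1, at a mean of 5.17 counts, was the member just inside the limit, and Serpina11, at 4.17, the member just outside it.

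Serpins are a family of protein inhibitors, most of which trap a protease that cuts their exposed reactive loop, so that inhibitor and enzyme are lost together. The clades are lettered A to I. In mice, clade A holds mostly secreted liver inhibitors, clade B the inhibitors that stay inside cells, and clades C to I a set of regulators of clotting, fibrinolysis, complement and matrix. A few members have kept the serpin fold without the inhibitory activity, among them the collagen chaperone HSP47 and the secreted factor PEDF. In tumors, the family is best known for controlling plasminogen activators at the cell surface and for guarding cells against the proteases of cytotoxic lymphocytes and neutrophils.

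Polyadenylated RNA was measured in 3 libraries of Ythdf2-KO cells and 3 libraries of WT cells. Both genotypes are B16-OVA, a mouse melanoma line that expresses chicken ovalbumin, grown in the same serum-containing medium. The Ythdf2-KO cells are labelled as lacking YTHDF2, which binds N6-methyladenosine in mRNA and is known to speed the decay of the mRNAs it binds. Sample titles tag the Ythdf2-KO cells gY2 and the WT cells gNC. The labels do not say whether the Ythdf2-KO cells are 1 clone or a pool, and they do not say whether replicates were separate cultures, so that p-values measure the spread between these libraries, which may be technical.

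The totals were 61167059 to 69497273 counts in Ythdf2-KO libraries and 55660473 to 68739046 in WT libraries. Levels are CPM, counts scaled to a common library total with TMM factors, and a count of 3 equalled 0.0433 to 0.0540 CPM. Ythdf2 mRNA itself stood at 100.1 to 104 CPM in Ythdf2-KO libraries and at 124 to 125 CPM in WT libraries, a fall of 1.23-fold (edgeR adjusted p = 4.08e-13). Gene counts show neither the edit nor the protein. All 10 melanocyte markers were tested and rose, with a summed level of 1526 to 1553 CPM in Ythdf2-KO libraries against 254 to 256 CPM in WT libraries. Of 15 leukocyte markers, 5 were tested, of which 1 rose and 2 fell. Their summed level was 26.3 to 29.6 CPM in Ythdf2-KO libraries and 30.5 to 32.3 CPM in WT libraries, Ly6g and Ncr1 had no count in any library, and the pan-leukocyte gene Ptprc gave 2, 0 and 74 counts across Ythdf2-KO replicates 1 to 3, against 2, 6 and 5 counts across WT replicates 1 to 3. Of 12 hepatocyte markers, 4 had no count in any library, and the summed level was 0.761 to 1.68 CPM in Ythdf2-KO libraries and 1.19 to 1.59 CPM in WT libraries. Of 14 fibroblast, endothelium and keratinocyte markers 9 were tested, of which 5 rose and 3 fell, against 24.1% and 25.8% of all genes tested. Their summed level was 3913 to 3976 CPM in Ythdf2-KO libraries and 3472 to 3571 CPM in WT libraries. The part of any of these shifts in the serpin values was not tested, and in bulk RNA a change in the mix of cells and a change in RNA per cell cannot be told apart.

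More serpin mRNAs fell than rose in Ythdf2-KO cells. At a Benjamini-Hochberg adjusted p under 0.05 in edgeR's quasi-likelihood test, 8 of the 17 tested members fell (among them Serping1, Serpinb2, Serpinb1b, Serpina3n, Serpini1, Serpinf1 and Serpinb8), 1 rose (Serpinh1) and 8 did not pass. Over all 17718 genes tested, 49.9% were called, 24.1% higher and 25.8% lower, so the share of serpins called in either direction, 9 of 17, was near the background. Of the calls over all genes, TMM factors put 48.3% on the higher side in Ythdf2-KO and upper-quartile factors 59.2%. Upper-quartile factors gave 2 rises and 8 falls among serpins. Falls of at least 2-fold were seen for 5 of the 17 serpins, against 3.38% of all genes, and rises of at least 2-fold for 0 of 17, against 6.16%. The median log2 fold change was -0.32 over the tested serpins and -0.0053 over all genes tested. In 8 tested serpins every Ythdf2-KO library lay below every WT library, and in 1 every Ythdf2-KO library lay above, against 28.9% and 26.9% of all tested genes; in either direction the genotypes did not overlap for 9 of 17 serpins and 55.9% of all tested genes. Of the 17, 13 passed the filter on low counts in both genotypes, 3 through WT libraries alone (Serpinb1b, Serpinf2 and Serping1) and 1 through Ythdf2-KO libraries alone (Serpinc1). Members that passed through 1 genotype alone, such as Serpinb1b and Serping1, entered only because that genotype was higher, so the counts over tested members are descriptions.

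**Figure D1:**
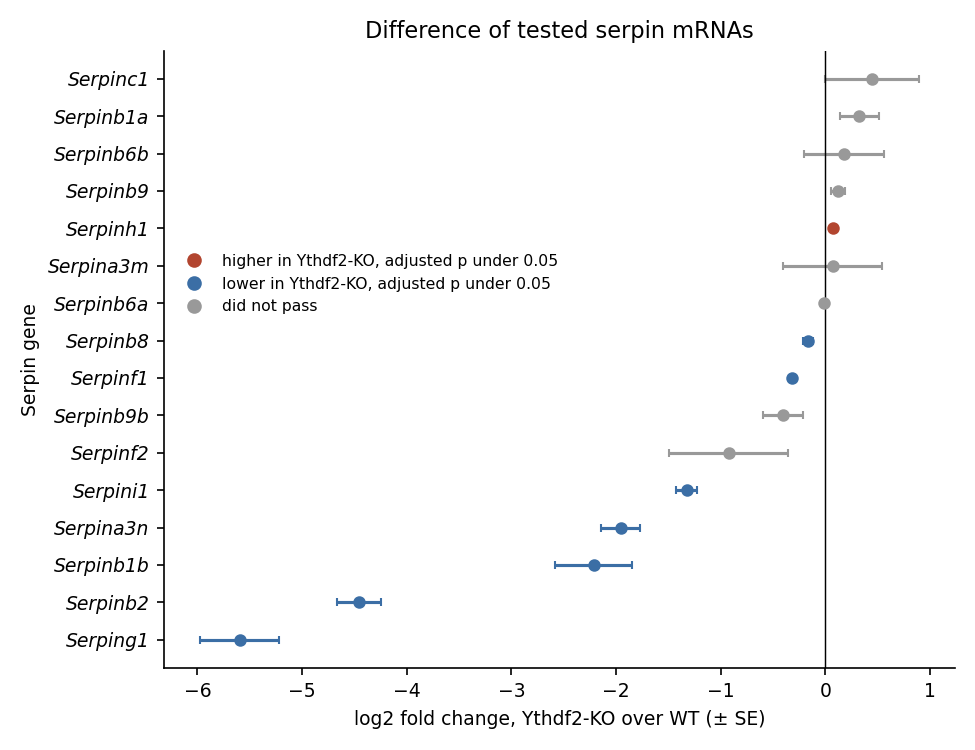
Log2 fold change of the tested serpin mRNAs described in the text, Ythdf2-KO over WT, on the horizontal axis, with 1 gene per line and bars of ± SE (3 libraries per genotype). The falls drawn run from -0.17 for Serpinb8 to -5.60 for Serping1, and the 1 rise, of Serpinh1, is 0.076.

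**Figure D2:**
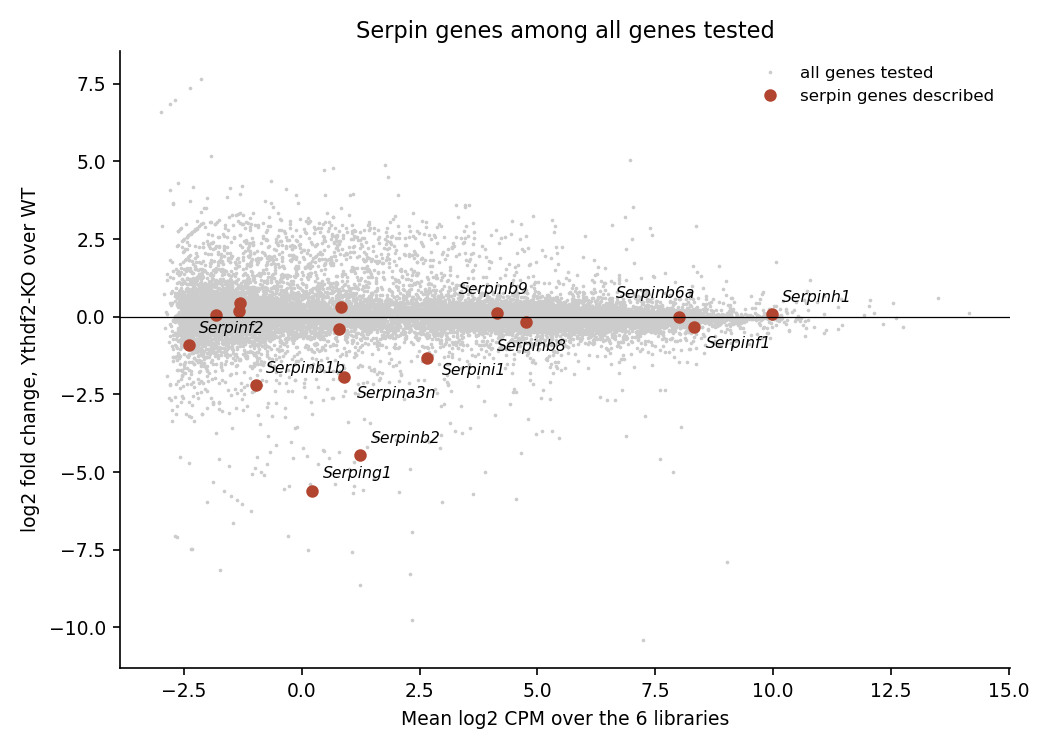
Each point is 1 of 17718 tested genes, with its mean log2 CPM on the horizontal axis and its log2 fold change, Ythdf2-KO over WT, on the vertical axis; the large points are the tested serpins described in the text. Serping1 and Serpinb2 lie low among genes of their abundance, while the 3 most abundant serpins lie between -0.32 and 0.076.

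The 3 most abundant members carried most of the family's mRNA. Per kilobase of merged exons, Serpinh1 alone held 66.5 ± 0.342% of the summed serpin level in Ythdf2-KO and 59.3 ± 0.337% in WT, Serpinf1 18.9 ± 0.157% and 22.2 ± 0.275%, and Serpinb6a 7.45 ± 0.176% and 7.05 ± 0.152% (SD, n = 3 each). The summed level was 627, 627 and 649.6 CPM per kilobase in the Ythdf2-KO libraries, against 664, 689.7 and 671 CPM per kilobase in the WT libraries. The 2 sets of libraries did not overlap.

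**Figure D3:**
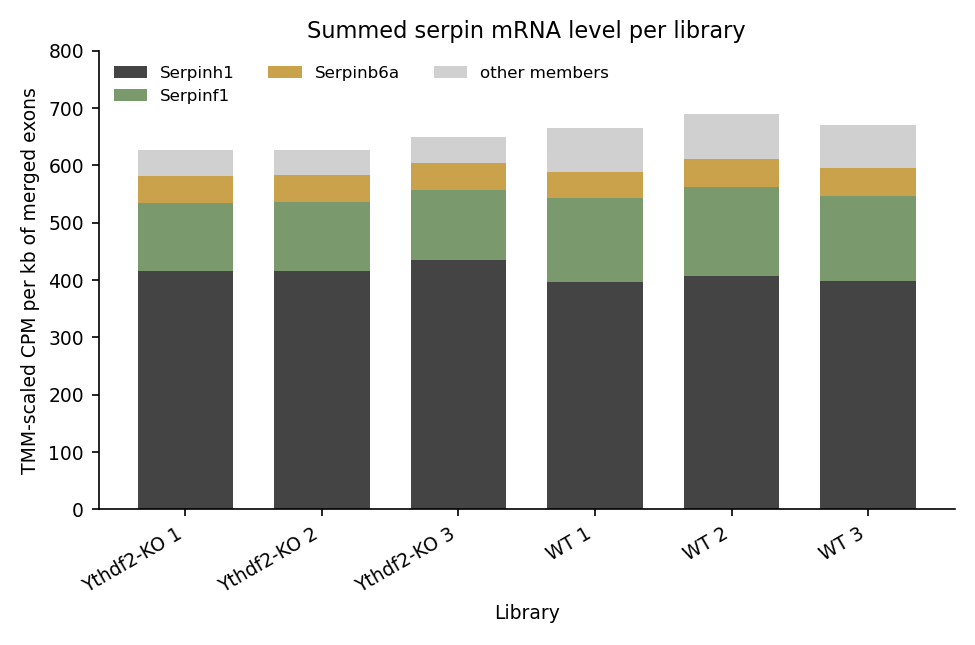
Summed level of the 63 serpin genes with a known exon length, in TMM-scaled CPM per kilobase of merged exons, for each of the 6 libraries. Each bar is split into Serpinh1, Serpinf1, Serpinb6a and the other members; the Serpinh1 segment is the tallest in all 6 bars.

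Clade H has a single member, Serpinh1, which encodes HSP47, the endoplasmic reticulum chaperone that binds folding procollagen. It stood at 1015, 1017 and 1062 CPM in Ythdf2-KO libraries and at 968, 993 and 974 CPM in WT libraries. Every Ythdf2-KO library lay above every WT library, by a margin that was small beside the level. The difference was 0.076 ± 0.021 on the log2 scale (SE, n = 3 per genotype; edgeR adjusted p = 0.00173), and the call was lost when replicate 3 was left out of each genotype (edgeR adjusted p = 0.0648).

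The genes that serve procollagen beside HSP47 did not move as 1 group. Of 28 collagen chain and maturation genes tested, 6 rose and 14 fell, against 24.1% and 25.8% of all genes tested. The list's median log2 fold change was -0.077. The chains Col1a1 and Col6a1 rose 4.56- and 2.28-fold, to 193 ± 4.27 and 2463 ± 19.7 CPM in Ythdf2-KO against 42.5 ± 2.30 and 1081 ± 9.34 CPM in WT (SD, n = 3 each). P4ha1 and P4ha2, which encode catalytic subunits of prolyl 4-hydroxylase, fell 1.58- and 1.91-fold, to 247 ± 3.88 and 125 ± 0.655 CPM in Ythdf2-KO against 390.5 ± 2.39 and 238 ± 3.40 CPM in WT. These genes were named for their small adjusted p, so the smaller difference of Serpinh1 beside them is no result. The list's median joins rises and falls, so it does not measure the size of change, and 8 of the 28 genes did not pass.

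Clade F holds Serpinf1, which encodes PEDF, a secreted non-inhibitory serpin known to restrain blood vessel growth, and Serpinf2, which encodes the plasmin inhibitor alpha-2-antiplasmin. Serpinf1 stood at 281, 282 and 287 CPM in Ythdf2-KO libraries and at 346, 367 and 350.0 CPM in WT libraries. The genotypes did not overlap, and the fall was 1.25-fold (log2 fold change -0.32 ± 0.023, SE; edgeR adjusted p = 1.89e-16). Serpinf2 had 13, 5 and 4 counts in Ythdf2-KO libraries and 12, 11 and 17 counts in WT libraries and did not pass (edgeR adjusted p = 0.181). The genes are neighbours on chromosome 11 in the annotation used.

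**Figure D4:**
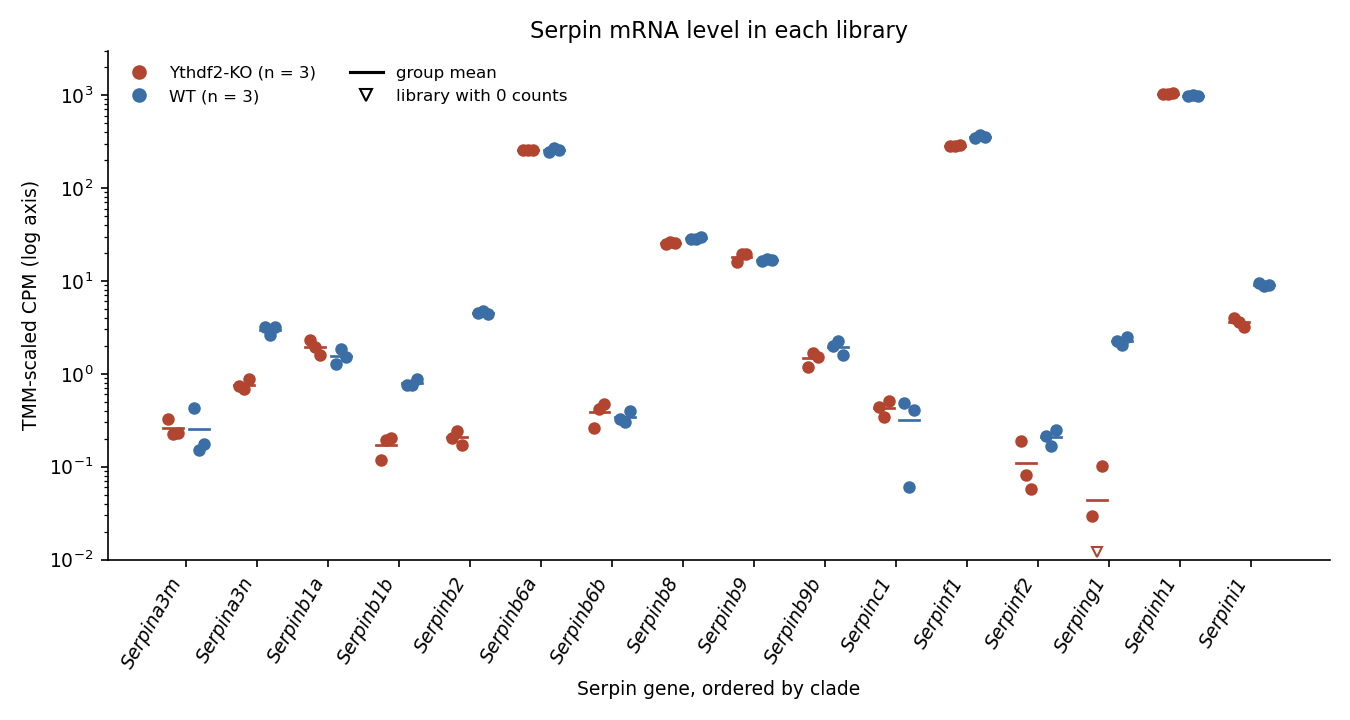
TMM-scaled CPM in each library of the tested serpin genes described in the text, on a log axis, with Ythdf2-KO libraries left of WT libraries for each gene and a line at each group mean (n = 3). Serpinh1 stands highest, Serpinf1 and Serpinb2 are lower in every Ythdf2-KO library, and the open triangle marks the Ythdf2-KO library with 0 counts of Serping1.

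Clade E is known for inhibitors of plasminogen activators. Serpine2, which encodes the thrombin and urokinase inhibitor protease nexin-1, had 2, 4 and 0 counts in Ythdf2-KO libraries and 12, 8 and 21 counts in WT libraries. It had too few counts for the test. When all 19849 genes with a mean of 5 or more counts were tested, it was lower (log2 fold change -2.74, edgeR adjusted p = 0.00301). Serpine2 reached that mean only through its WT libraries, so this fall is a description. Serpine3 stayed under the limit on counts.

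Further members, of clades B and I, also act on plasminogen activators. Serpinb2 encodes PAI-2, a clade B inhibitor of urokinase found mainly inside cells. It stood at 0.205, 0.243 and 0.173 CPM in Ythdf2-KO libraries (14, 15 and 12 counts) and at 4.50, 4.72 and 4.45 CPM in WT libraries (250, 309 and 305 counts). All Ythdf2-KO libraries were far below all WT libraries, a fall of 21.9-fold (log2 fold change -4.46 ± 0.21, SE; edgeR adjusted p = 7.75e-23). Serpini1, of clade I, encodes neuroserpin, an inhibitor of tissue-type plasminogen activator known from neurons. It had 4.03, 3.64 and 3.16 CPM in Ythdf2-KO libraries and 9.49, 8.70 and 8.97 CPM in WT libraries, without overlap, and fell 2.51-fold (log2 fold change -1.33 ± 0.10, SE; edgeR adjusted p = 2.00e-15). Serpini2 had no count in any library.

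Serpinb2 lies on chromosome 1 in a row of clade B genes, with Serpinb8 beyond Serpinb10, which had no count in any library. In the annotation, exons of Serpinb2 and Serpinb10 overlap, and the part of this overlap in the counts was not tested. Serpinb2 and Serpinb8 differed in level and in size of fall, and the 250 bases before the start of each are shown because the genes share this neighbourhood. The sequences come from RefSeq on GRCm38.p6, on the plus strand, 5′ to 3′, and capitals mark the motif matches given below. RefSeq lists 2 starts for Serpinb2, and the window before the first is given.
Serpinb2, chr1:107511173-107511422: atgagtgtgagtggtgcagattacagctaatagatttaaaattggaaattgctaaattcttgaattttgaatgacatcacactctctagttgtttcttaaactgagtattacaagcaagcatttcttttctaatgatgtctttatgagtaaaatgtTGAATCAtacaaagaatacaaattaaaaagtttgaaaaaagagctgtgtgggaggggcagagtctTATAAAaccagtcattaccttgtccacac
Serpinb8, chr1:107589756-107590005: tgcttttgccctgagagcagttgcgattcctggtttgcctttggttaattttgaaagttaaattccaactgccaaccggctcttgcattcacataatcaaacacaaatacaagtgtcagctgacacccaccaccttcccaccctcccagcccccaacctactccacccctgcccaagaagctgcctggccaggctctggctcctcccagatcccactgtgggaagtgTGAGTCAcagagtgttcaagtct
The 7 motifs below were searched on both strands. The AP-1 motif TGANTCA was found once in each window, 94 bases before the start of Serpinb2 and 23 bases before that of Serpinb8, and 6.75% of the 32817 promoter windows of this length hold it. It was also found 54 bases before the start of Serpinb10, which lies between them and had no count. The windows of Serpinb5, Serpinb7, Serpinb11 and Serpinb12 in this row hold it too, and those of Serpinb3a, Serpinb3b, Serpinb3c and Serpinb3d do not. The TATA motif TATAAA was found 29 bases before the start of Serpinb2 and not in the Serpinb8 window, against 12.4% of all windows. The heat shock motif GAANNTTC (6.69% of windows), the STAT motif TTCNNNGAA (7.01%), the CRE motif TGACGTCA (1.55%), the E-box CACGTG (6.02%) and the NF-kappaB motif (7.25%) were in neither window, and no 2 matches overlapped. On either strand, the TATA motif was also in the windows of Serpinb3a, Serpinb3b, Serpinb3c, Serpinb3d, Serpinb7 and Serpinb12 in this row. The windows of Serpinb5, Serpinb10 and Serpinb11 do not hold it. These are matches of letters and were not tested for a factor.

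Among the enzymes and receptors of plasminogen activation, 10 of 13 listed genes were tested, of which 3 rose and 4 fell. Over all genes tested, 24.1% were called higher and 25.8% lower. The list's median log2 fold change was 0.065. Plat, which encodes tissue-type plasminogen activator, fell 1.74-fold to 20.7 ± 1.63 CPM in Ythdf2-KO against 36.0 ± 1.24 CPM in WT (SD, n = 3 each). Plaur, which encodes the urokinase receptor, fell 1.17-fold, and Lrp1, which encodes an endocytic receptor for complexes of proteases with their inhibitors, rose 1.18-fold to 1238 ± 2.70 CPM against 1046 ± 46.8 CPM in WT. Eno1, whose glycolytic enzyme also serves as a plasminogen receptor, fell 1.33-fold. Plau, which encodes urokinase itself, was at 0.241 ± 0.0493 CPM in Ythdf2-KO and 0.133 ± 0.0990 CPM in WT and did not pass (edgeR adjusted p = 0.218). The mRNAs of tissue-type activator, neuroserpin (Serpini1) and PAI-2 (Serpinb2) were thus all lower in Ythdf2-KO cells, while urokinase mRNA was scarce in both genotypes.

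Clade B was the largest, with 28 members, of which 12 were expressed. Of these, 8 were tested, with 3 lower and none higher, against 25.8% and 24.1% of all genes tested. Serpinb6a, whose product inhibits trypsin-like proteases and cathepsin G, was the most abundant gene of the clade. It had 255, 257 and 255 CPM in Ythdf2-KO libraries and 247, 266 and 259 CPM in WT libraries, which overlapped, and did not pass (log2 fold change -0.0099 ± 0.024, SE; edgeR adjusted p = 0.767). Its exons overlap Nqo2, Ripk1 and another gene on the opposite strand in the annotation, and whether the counting used strand is not given in the sources used here. The direction of its small difference turned with upper-quartile scaling (log2 fold change 0.044).

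Serpinb8, whose human counterpart inhibits the proprotein convertase furin, stood at 25.1, 26.2 and 25.4 CPM in Ythdf2-KO libraries and at 28.0, 28.5 and 29.5 CPM in WT libraries. The groups did not overlap, and the fall was 1.12-fold (log2 fold change -0.17 ± 0.047, SE; edgeR adjusted p = 0.00274). Furin fell further, 1.95-fold, to 375 to 392 CPM in Ythdf2-KO libraries against 730.0 to 755 CPM in WT libraries. Serpinb9 encodes an inhibitor of granzyme B, by which cells resist killing by cytotoxic lymphocytes. It had 15.9, 19.3 and 19.6 CPM in Ythdf2-KO libraries and 16.6, 17.0 and 16.7 CPM in WT libraries. Ythdf2-KO replicate 1 lay below all WT libraries and the other 2 above, and the gene did not pass (log2 fold change 0.12 ± 0.066, SE; edgeR adjusted p = 0.126). Without Ythdf2-KO replicate 1 it was higher (log2 fold change 0.21, edgeR adjusted p = 0.00623), as it was with upper-quartile scaling (edgeR adjusted p = 0.0272).

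The paralogs on chromosome 13 gave differing values. Serpinb1b had 0.117, 0.194 and 0.202 CPM in Ythdf2-KO libraries (8, 12 and 14 counts) and 0.756, 0.764 and 0.876 CPM in WT libraries (42, 50 and 60 counts). The libraries were well separated, and the fall was 4.64-fold (log2 fold change -2.21 ± 0.37, SE; edgeR adjusted p = 1.64e-06). Serpinb1b passed the filter on low counts only through its WT libraries, so this fall is a description. Serpinb1a, which like human SERPINB1 encodes an inhibitor of neutrophil elastase and cathepsin G, had 159, 119 and 111 counts in Ythdf2-KO libraries and 70, 122 and 105 counts in WT libraries and did not pass (log2 fold change 0.33 ± 0.19, SE; edgeR adjusted p = 0.156). Of the 50-base stretches in their longest transcripts, 3.42% of Serpinb1a and 3.52% of Serpinb1b also occur in other genes. Serpinb9b, at 81, 104 and 106 counts in Ythdf2-KO libraries and 111, 147 and 109 in WT libraries, had a log2 fold change of -0.41 ± 0.19 (SE) and did not pass (edgeR adjusted p = 0.0730). It was lower without WT replicate 3 (edgeR adjusted p = 0.0265), and also when each genotype lost its replicate 3 (edgeR adjusted p = 0.0435). Exons of Serpinb9b overlap Gm36099 on the opposite strand in the annotation. Serpinb6b did not pass either, with 18, 26 and 33 counts in Ythdf2-KO libraries and 18, 20 and 27 counts in WT libraries.

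The other expressed clade B genes were too low for the test. Serpinb7 had 2, 4 and 0 counts in Ythdf2-KO libraries and 8, 16 and 6 counts in WT libraries. When all genes with a mean of 5 or more counts were tested, it was lower (log2 fold change -2.31, edgeR adjusted p = 0.0192). It reached that mean only through its WT libraries, so this fall too is a description. In the same fit Serpinb6d, Serpinb9e and Serpinb9g did not pass (edgeR adjusted p = 0.359, 0.439 and 0.0619). Serpinb6d had 4, 10 and 4 counts in Ythdf2-KO libraries and 6, 15 and 10 counts in WT libraries. Serpinb9e and Serpinb9g had 0 to 10 counts in Ythdf2-KO libraries and 4 to 24 counts in WT libraries, and share 28.4% and 54.8% of their 50-base stretches with other genes, so that their counts are uncertain. Serpinb5, known as maspin, and the Serpinb3 group lay under the limit on counts.

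Of the serpin values between 1 and 20 counts, 78.3% were even numbers (94 of 120), and over all genes 63.3 to 65.8% of such values were even in each library. The labels do not say if both mates of a fragment were counted, so a low count may stand for fewer fragments than its number.

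Proteases of the kinds that clade B serpins inhibit ranged from no counts to high levels. Of 14 genes of leukocyte and mast cell granules, serine proteases and the pore-forming Prf1, 7 had no count in any library. In this list 3 genes were tested, of which 2 fell, against 25.8% of all genes tested. Tpsab1, which encodes a mast cell tryptase, fell 29.8-fold to 0.131 ± 0.0387 CPM in Ythdf2-KO against 3.95 ± 0.484 CPM in WT, and Prtn3, which encodes proteinase 3, fell 2.08-fold to 0.848 ± 0.0389 CPM against 1.77 ± 0.209 CPM in WT (SD, n = 3 each). Tpsab1 had 6, 10 and 10 counts in Ythdf2-KO libraries. It passed the filter on low counts only through its WT libraries, so its fall is a description. Gzmm, at 0.256 ± 0.0637 CPM in Ythdf2-KO and 0.164 ± 0.0980 CPM in WT, did not pass. Cysteine cathepsins, lysosomal proteases that some clade B serpins also inhibit, were listed with Lgmn, which encodes legumain. The list's summed level was 2693 to 2746 CPM in Ythdf2-KO libraries and 3230 to 3285 CPM in WT libraries. Ctsf, Ctss and Ctsw were low, at 0.178, 0.469 and 0.194 CPM in Ythdf2-KO and 0.125, 0.353 and 0.221 CPM in WT. All 11 listed genes were tested, 2 rose and 5 fell, against 24.1% and 25.8% of all genes tested. The list's median log2 fold change was -0.18. The rises numbered 0 without Ythdf2-KO replicate 3 and 1 without Ythdf2-KO replicate 1, WT replicate 1 or WT replicate 3, while the falls stayed at 5 in each case. Ctsl, Lgmn, Ctsz and Ctsh fell 1.35-, 1.44-, 1.24- and 2.39-fold; Ctsl stood at 1111 ± 8.95 CPM in Ythdf2-KO against 1495 ± 8.31 CPM in WT.

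Clade G holds Serping1 alone, which encodes the C1 inhibitor, the brake on the C1r and C1s proteases of complement and on plasma kallikrein. It had 2, 0 and 7 counts in Ythdf2-KO libraries (0.0293, 0 and 0.101 CPM) and 124, 135 and 172 counts in WT libraries (2.23, 2.06 and 2.51 CPM). It was at or near the floor in all Ythdf2-KO libraries and well above it in all WT libraries, and its fall was the largest among the tested serpins (48.4-fold, log2 fold change -5.60 ± 0.38, SE; edgeR adjusted p = 2.08e-16). Serping1 passed the filter on low counts only through its WT libraries, so this fall is a description. Of its Ythdf2-KO counts, 7 lay in replicate 3, the library that also held the 74 Ptprc counts; the part of other cells in this value was not tested. Without that library, which held most of the Ythdf2-KO counts, the log2 fold change was -7.04 (edgeR adjusted p = 1.57e-14). Without Ythdf2-KO replicate 1 or 2 it was smaller in size, -5.36 or -5.08. Without Ythdf2-KO replicate 3, 2 counts remained against 431 in all WT libraries, a WT level 148 times that of Ythdf2-KO. Leaving out the library with most of the Ythdf2-KO counts raises this ratio by itself, so it is a description. The 95% exact interval, 40.7 to 1225, covers counting error only. It takes each count as a separate fragment, so it is too narrow if both mates of a fragment were counted.

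Early complement genes, the targets of the C1 inhibitor among them, changed both ways: all 7 tested of 15 were called, 3 higher and 4 lower. Over all genes tested, 49.9% were called, 24.1% higher and 25.8% lower. The list's median log2 fold change was -0.43. C1s1 and C1ra, which encode C1s and C1r, fell 2.01- and 1.61-fold, to 62.5 ± 1.58 and 29.9 ± 1.45 CPM in Ythdf2-KO against 125 ± 3.60 and 48.2 ± 2.76 CPM in WT (SD, n = 3 each). C3, which encodes the central complement component, fell 24.1-fold to 15.5 ± 0.533 CPM against 375 ± 1.01 CPM in WT. C2, which encodes the substrate of C1s, rose 3.24-fold to 2.29 ± 0.123 CPM against 0.705 ± 0.0908 CPM in WT.

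Clade A had 25 members and 3 expressed ones. Serpina3n, an inducible relative of human alpha-1-antichymotrypsin whose product inhibits granzyme B, had 0.732, 0.680 and 0.881 CPM in Ythdf2-KO libraries (50, 42 and 61 counts) and 3.15, 2.63 and 3.15 CPM in WT libraries (175, 172 and 216 counts). The groups did not overlap, and the fall was 3.88-fold (log2 fold change -1.95 ± 0.19, SE; edgeR adjusted p = 2.86e-12). Of its 50-base stretches, 6.90% also occur in other genes. Its neighbour Serpina3m had 22, 14 and 16 counts in Ythdf2-KO libraries and 24, 10 and 12 counts in WT libraries. Serpina3m did not pass (edgeR adjusted p = 0.924), and its exons overlap those of Serpina3k, which had no count in any library. Of the 50-base stretches of Serpina3m, 19.1% also occur in other genes, Serpina3n among them, so its counts are uncertain. Serpina12, which encodes vaspin, had 4, 4 and 3 counts in Ythdf2-KO libraries and 6, 16 and 10 counts in WT libraries and had too few for the test. It did not pass when all genes with a mean of 5 or more counts were tested (edgeR adjusted p = 0.0685). The Serpina1 genes, which encode the liver inhibitor alpha-1-antitrypsin, had at most 6 counts in a library.

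Clades C and D hold the heparin-dependent thrombin inhibitors. Serpinc1, which encodes antithrombin, had 30, 21 and 35 counts in Ythdf2-KO libraries and 27, 4 and 28 counts in WT libraries, overlapped between the genotypes and did not pass (edgeR adjusted p = 0.447). Its annotated exons overlap Zbtb37 on the opposite strand, so its counts are uncertain. Serpind1, which encodes heparin cofactor II, had 8, 8 and 9 counts in Ythdf2-KO libraries and 3, 1 and 2 counts in WT libraries. It was the 1 expressed, untested member with every Ythdf2-KO library above every WT library, and did not pass when all genes with a mean of 5 or more counts were tested (edgeR adjusted p = 0.0529). Of 20 coagulation genes 11 were tested, 3 rose and 3 fell, against 24.1% and 25.8% of all genes tested. The list's median log2 fold change was 0.0056. F3, which encodes tissue factor, the starter of clotting, rose 2.40-fold to 206 ± 2.55 CPM in Ythdf2-KO against 86.0 ± 2.19 CPM in WT, and F13a1, which encodes a fibrin cross-linking enzyme chain, rose 3.23-fold to 66.0 ± 0.438 CPM against 20.4 ± 0.608 CPM in WT (SD, n = 3 each). Procr and Tfpi, which encode a protein C receptor and an inhibitor of tissue factor, fell 1.37- and 1.18-fold. Thrombin's own gene F2 was among the 9 not tested.

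Other serine proteases and other inhibitor families completed the comparison. Of 25 listed serine protease genes 13 were tested, 6 rose and 1, Furin, fell. Htra1 and Prss23 rose 2.56- and 4.29-fold, to 32.3 ± 1.10 and 4.51 ± 0.0229 CPM in Ythdf2-KO against 12.6 ± 0.602 and 1.05 ± 0.147 CPM in WT (SD, n = 3 each). Of 38 protease inhibitors outside the serpin family 21 were tested, 9 rose and 3 fell, and the list's median log2 fold change was 0.13. Slpi, which encodes the secretory leukocyte protease inhibitor, fell 31.8-fold to 14.3 ± 0.193 CPM in Ythdf2-KO against 455 ± 7.73 CPM in WT. Cst3, Wfdc1 and Timp2, which encode cystatin C, a whey acidic protein domain inhibitor and a metalloproteinase inhibitor, rose 1.73-, 3.16- and 1.40-fold. The calls thus stood at 1 rise and 8 falls among 17 tested serpins and at 9 rises and 3 falls among 21 tested other inhibitors. Over all genes tested, 24.1% were called higher and 25.8% lower. Of the 8 serpin falls, 3 were under 2-fold, and Serpinb1b and Serping1 entered the test through WT libraries alone. The difference between these lists was not tested.

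**Figure D5:**
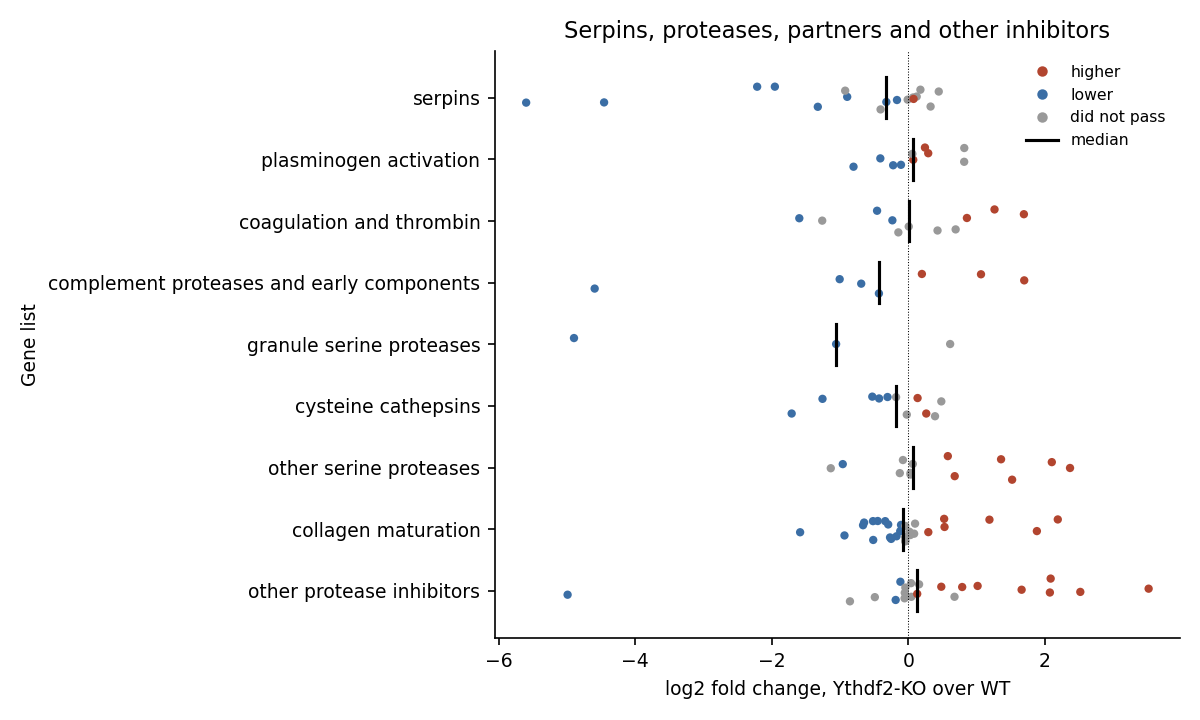
Log2 fold change, Ythdf2-KO over WT, of the tested genes of each list on the horizontal axis, with 1 point per gene, colored by its call, and a black line at each list's median. The serpin median is -0.32, and those of the other lists lie between -1.06 for granule serine proteases and 0.13 for other protease inhibitors.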

How the data were processed

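The deposited values are whole counts per gene symbol, not normalized. The submitters' processing notes name fastp 0.23.2, HISAT2 2.2.1, featureCounts 2.0.6 and the build GRCm39 as the authors' tools; counting options (strand, pairs, multiple hits) are not stated there or in the labels. Columns were assigned by the labels. In R 4.3.3, edgeR 4.0.16 tested genes kept by filterByExpr, with TMM scaling, robust quasi-likelihood dispersions and Benjamini-Hochberg adjustment over all 17718 genes; the standard error is the log2 fold change divided by the root of the F statistic. The procedure was tested on simulated counts. The rule named every expressed serpin, with every library's CPM for those called and at least 2-fold apart or at a mean of 5 or more CPM in either genotype, and of each list the 4 tested genes with the smallest adjusted p. Some genes the rule takes are not reported here, though counts, sums and medians include them. Any further gene was picked with its values in view. Members and lists were chosen with earlier results of these data known. Exon lengths (63 of 64 members), overlaps and 50-base stretches came from GENCODE vM21 and promoters (54 of 64 members) and gene order from RefSeq, both on GRCm38, joined by symbol. Intervals cover counting error only. Alternatives were other scalings, filters, tests, a replicate block, a threshold of 0.01 and leaving out libraries, with DESeq2 1.42.0 and limma 3.58.1. Figures used Python 3.11.15 with matplotlib 3.10.9.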

Additional observations from a re-analysis of the deposited data

How the results depend on the processing

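The 9 serpin calls (1 higher, 8 lower) became 9 to 11 when libraries were left out, 10 with upper-quartile scaling, 12 with no filter on low counts and 5 of 7 tested with a filter at a mean of 5 CPM, which leaves fewer genes. Under that filter, calls fell to 0 among granule serine proteases, of which none was left to test, and to 3 among other serine proteases. The 8839 calls over all genes became 7948 to 8487 without single libraries or replicate 3 of each genotype, and the log2 fold change of Ythdf2 ran from -0.31 to -0.28 when libraries were left out.

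Replicate numbers did not pair the samples: the deviations of same-numbered libraries correlated at 0.011, -0.037 and -0.052. With the replicate block, 9 serpins and 8541 genes were called.

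Members that did not pass changed sign as follows, and the cause was not tested. Serpinb6a gave log2 fold changes of 0.044 with upper-quartile scaling, 0.010 with no filter, 0.014 with the CPM filter, and -0.035 to 0.026 when libraries were left out, positive without WT replicate 2. With libraries left out, Serpina3m ran from -0.18 to 0.66, with -0.12 without Ythdf2-KO replicate 1, -0.18 and -0.14 without WT replicates 2 and 3, and -0.060 without replicate 3 of each genotype. Likewise Serpinb6b ran from -0.0049 (without Ythdf2-KO replicate 3) to 0.39, and Serpinc1 from -0.043 (without WT replicate 2) to 0.86; limma-voom gave 0.87 for Serpinc1. The 8 falls kept their direction and call under every alternative in which the gene was tested. For members at a few counts per library, differences were not detectable at this depth unless large.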
